A study of Mus musculus with 18 samples.

Results

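The mitosis and chromosome segregation genes described here are 50 named genes of the mitotic machinery, found by their symbols among the 31165 genes of a table of RNA levels in livers of newborn C57BL/6J mice. All 50 were in the table, and all 50 passed a mean of 10 scaled counts over the 18 livers, so all were among the 14104 genes tested. The pups had received intraperitoneal injections of a miR-497a-5p mimic or of an inert scrambled mimic on postnatal days 1 and 3, with P1 the day of birth. Livers were taken at P5, P7 and P14, giving 6 groups of 3 livers: mimic and scrambled at each day. The protocol names doses of 10 and 100 mg/kg, and the labels of single livers do not say which one a pup received. No uninjected group was analysed here, so every level comes from an injected pup. Each library was made from a small cube of whole liver, and the labels do not say which pups shared a litter. The p-values measure the spread between these livers.

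Mitosis needs condensed chromosomes, a bipolar spindle, kinetochores that tie chromosomes to spindle fibres, a checkpoint that waits for the last attachment, and a contractile ring that parts the daughter cells. Cyclin B and Cdk1 drive entry, and destruction of cyclin B and securin by the anaphase-promoting complex ends it. Transcripts of most of these proteins are made in G2 and mitosis, under the MuvB complex with B-Myb and FoxM1, and are nearly absent from resting cells. The newborn mouse liver holds dividing hepatocytes and also blood-forming cells, which leave it in the first weeks of life. The miR-15/16/497 family, to which the injected mimic belongs, is known for targets among cell cycle genes.

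The short sequences below show what the injected strand could pair with in these genes and what many of their promoters share. The first is the mature miRNA as RefSeq lists it on build GRCm38.p6, encoded on the plus strand of chr11:70234730-70234751, with its seed, bases 2 to 8, in capitals. The other 4 are stretches of 3′UTR in mm10 from GENCODE mouse release 21, with the 7 bases complementary to the seed in capitals.
mmu-miR-497a-5p: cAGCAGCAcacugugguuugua
Kif23, minus strand, chr9:61917466-61917472: aaaacaaacaaaTGCTGCTatt
Aurka, minus strand, chr2:172356650-172356656: ccccaagaaccaTGCTGCTttt
Birc5, plus strand, chr11:117853557-117853563: tgaggtgggtccTGCTGCTcaa
Nusap1, plus strand, chr2:119649618-119649624: aaagctgagaatTGCTGCTgta

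The coordinates are those of the 7 capital bases. Such a match was present in the 3′UTR of 6 of the 50 genes, or 12%, against 24.5% of the 13184 tested genes with an annotated 3′UTR. The 6 were Cdk1, with 3 matches of which a pair overlapped, Hmmr, with 2 overlapping matches, and Aurka, Birc5, Nusap1 and Kif23, with 1 each. Only the Kif23 match was followed by an A, which makes it the longer 8-mer form, present in 2% of the 50 genes and in 4.59% of the tested genes. The 3′UTRs of the 50 genes were shorter, with a median of 634 bases against 1174 bases over the tested genes. For each gene the longest annotated 3′UTR of any protein-coding transcript was read, which need not be that of its main transcript. The Birc5 match lay at base 750 of a 3′UTR of 2936 bases, while the transcript used for its length here has 947 bases in all. A match is a string of letters in this window and not a measured site.

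Promoter letters were read from RefSeq windows on GRCm38.p6 that run from 250 bases before to 50 bases after each gene's start. RefSeq windows were matched for 42 of the 50 genes. The cell cycle homology region, or CHR, is the element that MuvB complexes contact, and it was searched as TTTGAA on both strands. The CCAAT box, known as the binding site of NF-Y, was searched as CCAAT on both strands. In the sequences below the capitals mark a CHR as read along the gene's own strand, and TTCAAA is the same element on the other strand. Cdk1 and Kif15 each have a further match that is not shown, at -15 and -234 bases from the start.
Cdk1, minus strand, chr10:69352966-69352995: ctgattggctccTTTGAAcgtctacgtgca
Cdc20, minus strand, chr4:118437344-118437373: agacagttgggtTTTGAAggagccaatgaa
Ube2c, plus strand, chr2:164769888-164769917: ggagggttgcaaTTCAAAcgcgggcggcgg
Espl1, plus strand, chr15:102296254-102296283: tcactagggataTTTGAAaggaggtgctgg
Kif15, plus strand, chr9:122951050-122951079: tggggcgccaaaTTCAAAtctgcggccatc
Ncapg, plus strand, chr5:45669883-45669912: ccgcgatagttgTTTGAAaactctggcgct

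A CHR was present in 32 of the 42 promoters, or 76.2%, against 20.2% of the 27025 genes with a RefSeq window. A CCAAT box was present in 31 of 42, or 73.8%, against 41.1% of all windows. Both were present in 27 of 42, or 64.3%, against 7.97%. The variant TTCGAA was present in 4 of 42, or 9.52%, against 1.80%. Most CHRs lay close to the start: 30 genes had one within 100 bases upstream or in the bases after it. With the 250 upstream bases alone the CHR was in 40.5% of the 42 promoters and in 18.3% of all. Matches were counted also where they share bases, as CCAAT boxes on opposite strands do in the Ube2c window, and a match describes letters only.

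Values are whole numbers that the authors scaled between libraries, called scaled counts here. They summed to 3954405 to 4248257 per library, and the 50 genes took 0.546% to 0.672% of that sum at P5, 0.456% to 0.603% at P7 and 0.246% to 0.331% at P14. Tests were made with limma on log2(scaled count + 1), which understates the change of low genes, with p-values adjusted by the Benjamini-Hochberg method over all 14104 genes and a threshold of 0.05. "Fell" and "rose" are used of differences past it. The hepatocyte marker Alb stood at 1672 to 2886 scaled counts in the 18 livers and did not pass the threshold between P14 and P5 (limma, Benjamini-Hochberg adjusted p = 0.875). The sources used here do not say whether duplicate reads were removed, a step that could limit the values of abundant and short transcripts, so nothing is read from the level of Alb or its missing difference. The part of such a step in these values was not tested.

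Several libraries stood apart in these genes. P5 mimic liver 3 was the highest of its group in 49 of the 50 genes, and P14 mimic liver 3 was the highest of the 6 livers of its day in 39. P7 scrambled liver 1 was the lowest of its group in 48 genes, while one or the other of P7 scrambled livers 2 and 3 was the highest of its day in 48. P7 scrambled liver 1 also carried skeletal muscle transcripts, with 1452 summed scaled counts of 5 muscle genes, against 366 in P7 scrambled liver 3 and at most 20 in the other livers. Results that rest on these livers are given with and without them.

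By P14 the mitotic genes as a group stood well below their P5 level. At P14 against P5, 49 of the 50 genes fell and none rose, where 24.8% of all tested genes fell and 23.9% rose. The median difference was -1.18 on the log2 scale, with a range of -2.07 to 0.11, against a median of 0.01 over all tested genes. In 47 of the 50 every P14 liver was below every P5 liver, against 15.3% of all tested genes. Most of the difference arose after P7: at P14 against P7, 47 genes fell, where 26.3% of all tested genes fell, with a median of -0.93. Every P14 liver was below every P7 liver in 39 genes, against 14.6% of all tested genes. At P7 against P5, 18 genes fell and none rose, where 13.2% of all tested genes fell and 13.7% rose, with a median of -0.22. These comparisons share livers, so their values are given side by side and not as independent results. In whole liver, fewer cells of a dividing type and less of the RNA per cell cannot be told apart.

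**Figure D1:**
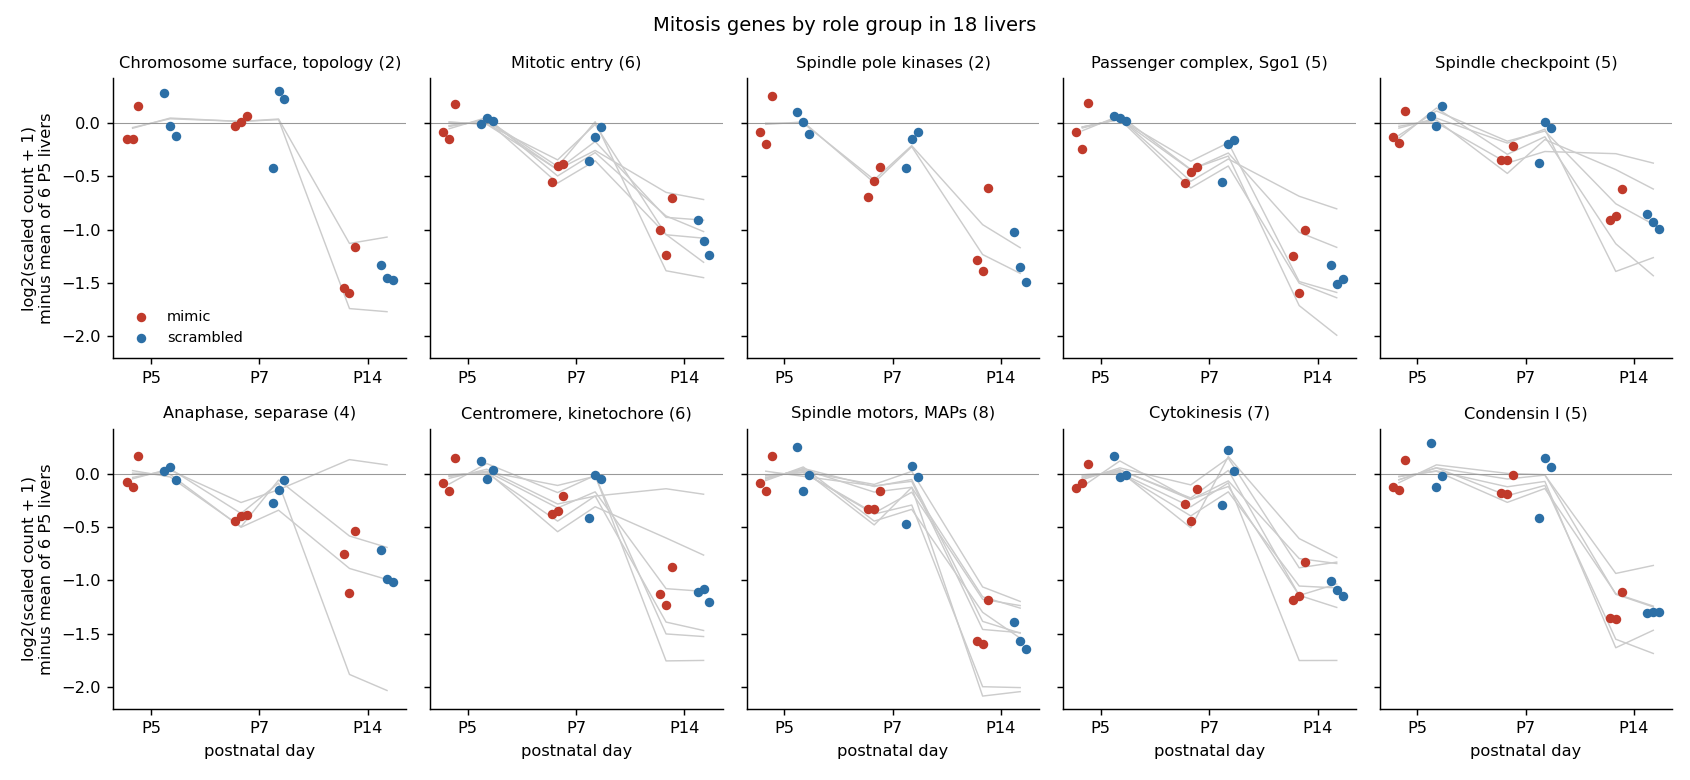
Each panel shows 1 of 10 role groups of mitosis genes, with the number of genes in parentheses, by postnatal day; the y axis is the log2(scaled count + 1) minus the mean of the 6 P5 livers, points are the mean over the group's genes in single livers, mimic left of scrambled, and grey lines join each gene's 6 group means. All 10 role groups lie lowest at P14, while the grey line of Pttg1 in the anaphase panel ends above its P5 level.

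The genes of Ki-67 and topoisomerase II showed no difference past the threshold at P7 against P5 and fell after P7. Mki67 encodes the protein that coats mitotic chromosomes and marks cycling cells, on chr7:135689784-135716361 in mm10. Its 6 livers ran from 2030 to 2723 scaled counts at P5 with a median of 2177, from 1642 to 2896 at P7 with a median of 2366, and from 591 to 814 at P14 with a median of 650.0. The P14 livers lay below all livers of the earlier days, and the P7 range enclosed the P5 range. Its P14 level was 29.6% of P5, a log2 difference of -1.76 (SE 0.12, limma, Benjamini-Hochberg adjusted p = 9.0e-10). Top2a, the enzyme that untangles sister chromatids, had 1069 to 1469 scaled counts at P5, 918 to 1417 at P7 and 481 to 660 at P14. P14 livers were again all lower, by 1.10 on the log2 scale with SE 0.11, which is 46.5% of the P5 mean.

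Genes of mitotic entry fell by P14 in all 6 cases, by differences of -1.42 to -0.68, and 4 of the 6 had already fallen at P7. Of all tested genes 24.8% fell at P14 against P5, 26.3% at P14 against P7 and 13.2% at P7 against P5. These shares stand beside the counts of every role group below. Ccna2, the cyclin that acts from S phase to early mitosis, had 745 to 1089 scaled counts at P5, 579 to 849 at P7 and 422 to 571 at P14, with a P14 minus P5 difference of -0.94 (SE 0.09). Cdk1, the kinase at the centre of mitotic entry, had 462 to 614, 364 to 518 and 291 to 407 scaled counts on the 3 days, and its P14 level was 62.2% of P5. Ccnb1, which encodes the partner cyclin of Cdk1, had 300 to 383 scaled counts at P5, 209 to 303 at P7 and 119 to 184 at P14, or 44.4% of P5. The P14 livers were below every P5 liver in each of these 3 genes. Foxm1, the transcription factor of the G2/M programme, stood at 48.4% of P5, and Cdc25c, a phosphatase that switches Cdk1 on, at 38.1%. Ccnb2, the second B cyclin, stood at 53.7%.

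Both spindle pole kinases fell. Plk1, which matures centrosomes and primes many mitotic steps, had 391 to 502 scaled counts at P5, 272 to 416 at P7 and 136 to 263 at P14, a P14 minus P5 difference of -1.32 (SE 0.13). Aurka, which builds the spindle poles, had 343 to 512, 254 to 387 and 160 to 293 scaled counts, a difference of -1.06 (SE 0.12). P14 mimic liver 3 set the highest P14 value in both, at 263 for Plk1 and 293 for Aurka.

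The chromosomal passenger complex, which corrects faulty attachments, fell in all its 4 genes, and the differences between these genes were not tested. Birc5, or survivin, kept 59.5% of its P5 level at P14, Aurkb, the kinase of the complex, kept 47.2%, Incenp, its scaffold, 34.7%, and Cdca8, or borealin, 33.8%. Incenp had 516 to 666 scaled counts at P5, 396 to 586 at P7 and 154 to 275 at P14. Birc5 had 347 to 493, 263 to 355 and 223 to 302, so its P14 livers overlapped with those of P7 but not with those of P5. Sgo1, which guards centromeric cohesin until anaphase, was among the 4 genes with the largest P14 minus P5 difference, with 195 to 275 scaled counts at P5, 151 to 226 at P7 and 58 to 79 at P14. That is 27.4% of P5, or -1.85 on the log2 scale (SE 0.11, limma, Benjamini-Hochberg adjusted p = 1.5e-10).

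All 5 checkpoint genes fell by P14, with the smallest differences in Mad2l1 and Bub3. Bub1, Bub1b and Ttk, the kinases and kinase-like proteins of the checkpoint, stood at 40.9%, 40.0% and 54.4% of their P5 level. Mad2l1, which holds Cdc20 inactive at unattached kinetochores, had 404 to 534 scaled counts at P5, 328 to 431 at P7 and 287 to 360 at P14, a P14 minus P5 difference of -0.53 (SE 0.07). Bub3, which brings Bub1 to kinetochores and also serves outside mitosis, had 496 to 599, 392 to 489 and 406 to 501 scaled counts. Bub3 fell by P7 and did not pass the threshold after it: its difference was -0.32 at P7 against P5 (limma, Benjamini-Hochberg adjusted p = 0.0054) and -0.01 with SE 0.07 at P14 against P7 (adjusted p = 0.91). A single P14 liver, mimic liver 3 at 501, overlapped with the P5 range.

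Among the 4 anaphase genes 3 fell by P14 and Pttg1 did not. Espl1, or separase, the protease that cuts cohesin, had 281 to 421 scaled counts at P5, 237 to 351 at P7 and 63 to 127 at P14, a difference of -1.96 (SE 0.15, limma, Benjamini-Hochberg adjusted p = 3.7e-09). Pttg1, or securin, which keeps separase inactive, had 168 to 206, 145 to 178 and 184 to 219 scaled counts. All 6 P14 livers were above all 6 P7 livers, so that Pttg1 was the one gene of the 50 that rose at P14 against P7, by 0.32 (SE 0.08, limma, Benjamini-Hochberg adjusted p = 0.0029), where 24% of all tested genes rose and 10.9% had every P14 liver above every P7 liver. Its difference at P14 against P5 was 0.11 (SE 0.08) and did not pass the threshold (adjusted p = 0.27). Cdc20, the activator of the anaphase-promoting complex, had 401 to 506, 286 to 450 and 236 to 390 scaled counts, or 65.2% of P5 at P14. Ube2c, the ubiquitin-conjugating enzyme of that complex, had 391 to 555, 286 to 410 and 196 to 278, or 51.9%.

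Within the Ndc80 complex, the coupler between kinetochore and microtubule, the P14 minus P5 differences of 3 measured subunits were of unlike size. Ndc80 itself had 220 to 293 scaled counts at P5, 166 to 257 at P7 and 83 to 98 at P14, a P14 minus P5 difference of -1.43 (SE 0.11). Nuf2, its partner at the microtubule end, had 248 to 326, 210 to 280 and 115 to 171, a difference of -1.09 (SE 0.11). Spc25, at the end that faces the centromere, had 399 to 507, 355 to 420 and 390 to 428, a difference of -0.17 (SE 0.07). Spc25 was just past the threshold (limma, Benjamini-Hochberg adjusted p = 0.0496), a call that was lost in most alternative settings. These are complex members by textbook knowledge, and the differences between subunits were not tested. The coding lengths of Ndc80, Nuf2 and Spc25 are 1926, 1389 and 534 bases, and the relation of age differences with coding length is given below. Among the centromere proteins, Cenpf, a large coat protein of kinetochores, had 564 to 773 scaled counts at P5, 451 to 776 at P7 and 181 to 271 at P14, 34.9% of P5. The motor Cenpe stood at 29.3%, and Cenpa, the histone H3 variant that marks centromeres, at 62.4%.

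All 8 spindle motors and microtubule proteins fell, with a median of -1.43, and they include the gene with the largest difference. Kif15, a motor that holds the spindle bipolar beside Eg5, is on chr9:122951046-123018733. It had 267 to 393 scaled counts at P5, 210 to 337 at P7 and 62 to 90 at P14, or 23.7% of P5. Its difference was -2.07 (SE 0.13, limma, Benjamini-Hochberg adjusted p = 2.0e-10), and every P14 liver was below every earlier liver. Kif18b, which limits microtubule length, had 254 to 359, 195 to 283 and 54 to 107 scaled counts, a difference of -2.00 (SE 0.16). Kif11, or Eg5, which pushes spindle poles apart, had 601 to 842, 478 to 799 and 232 to 269 scaled counts, 36.5% of P5. Tpx2, the activator of Aurora A on the spindle, had 659 to 822, 523 to 727 and 249 to 424, or 43.8%. The remaining 4, Kif4, Kif2c, Nusap1 and Hmmr, lay between 35.8% and 45.5% of P5.

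Cytokinesis genes fell in all 7 cases with a median of -1.06. Prc1, which bundles the midzone microtubules, had 505 to 655 scaled counts at P5, 427 to 591 at P7 and 221 to 335 at P14, 47.2% of P5. Racgap1 and Kif23 form the centralspindlin complex. Racgap1 stood at 48.3% and Kif23 at 29.4% of P5, and the difference between them was not tested. Racgap1 had 508 to 603, 402 to 537 and 201 to 349 scaled counts on the 3 days. Kif20a, Ect2 and Cep55, which act at the midzone, at the cortex and in the final cut, stood at 55.6%, 56.9% and 61.7%, and Anln, a scaffold of the contractile ring, at 43.4%.

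Condensin I, which compacts mitotic chromosomes, passed the threshold only in comparisons with P14. No condensin gene passed the threshold at P7 against P5, with differences between -0.20 and 0.00, and all 5 fell at P14 against P7. Smc4, a core subunit shared with condensin II, had 722 to 975 scaled counts at P5, 678 to 968 at P7 and 409 to 473 at P14, 53.4% of P5. Ncapd2, specific to condensin I, had 682 to 1070, 613 to 857 and 216 to 361, 34.2% of P5. Ncapg, another subunit specific to condensin I, stood at 32.3%, Smc2 at 43.5% and Ncaph at 43.8%.

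**Figure D2:**
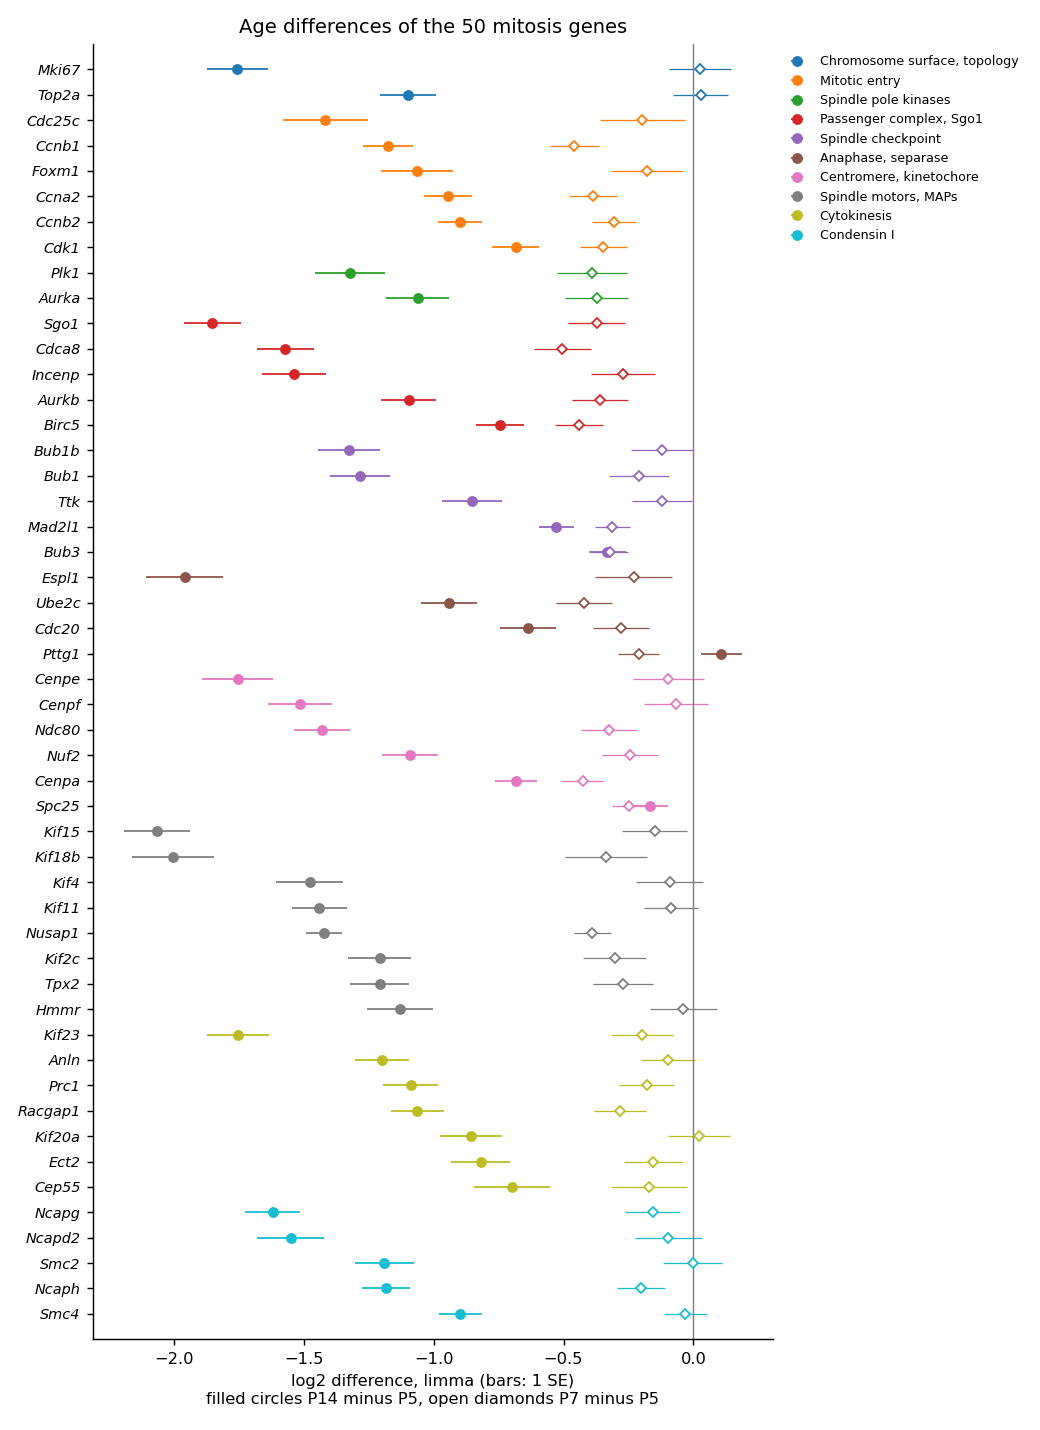
The x axis is the log2 difference from limma with bars of 1 SE, and the rows are the 50 genes coloured by role group; filled circles give P14 minus P5 and open diamonds P7 minus P5. Filled circles lie left of the diamonds except in Pttg1 and Spc25, those of Bub3 nearly coincide, and Kif15, Kif18b and Espl1 lie farthest left at -2.07, -2.00 and -1.96.

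The largest differences of the early step, at P7 against P5, were in other genes than those of the late one. The 4 largest differences were those of Cdca8 at -0.51, Ccnb1 at -0.46, Birc5 at -0.44 and Cenpa at -0.43, all past the threshold (limma, Benjamini-Hochberg adjusted p = 0.0055, 0.0047, 0.0047 and 0.0035 in that order). Cenpa had 282 to 381 scaled counts at P7, against 391 to 494 at P5, and it and Bub3 were the 2 genes whose P7 livers all lay below the P5 livers, where 3.31% of all tested genes did. The 4 smallest differences were those of Top2a at 0.03, Mki67 at 0.02, Kif20a at 0.02 and Smc2 at -0.00, with SEs of 0.11 to 0.12. Without P5 mimic liver 3, 11 genes fell at P7 against P5, and without P7 scrambled liver 1, 12 did. The share of all tested genes that fell in these fits is not given here, so a general loss of calls cannot be set apart. At P14 against P7 the largest differences were those of Kif15 at -1.92, Mki67 at -1.78, Espl1 at -1.73 and Kif18b at -1.67.

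These age differences followed the length of the coding sequence. Over the 50 genes, Spearman's rank correlation between coding length and the log2 difference was 0.79 at P7 against P5, -0.79 at P14 against P7 and -0.62 at P14 against P5. The first 2 comparisons share the P7 livers with opposite sign. Genes with a short coding sequence such as Birc5, with 420 bases, Cenpa, with 402, and Spc25, with 534, were lower by P7 and changed less after it, while a long one such as Mki67, with 9531 bases, fell only after P7. The same correlations over 13229 tested genes with a coding length were 0.50, -0.34 and 0.02. The libraries differed in this respect as a whole: the rank correlation over genes between the value relative to the gene's mean and transcript length ran from -0.38 to 0.20 at P5, from 0.06 to 0.53 at P7 and from -0.25 to 0.02 at P14. With that value of each library as a covariate in the fit, no gene of the 50 passed the threshold at P7 against P5. Still, 49 of the 50 were lower there, against 47 in the main fit, with a median of -0.32. The median SE was larger, at 0.17 in place of 0.11. The share of all tested genes past the threshold with this covariate is not given here, so a general loss of calls cannot be set apart. In the same fit 44 genes fell at P14 against P7 and 49 at P14 against P5, and the correlations with coding length were -0.45, -0.61 and -0.65. The part of library composition in the early step was not tested beyond this, nor was that of duplicate removal in the relation with length.

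**Figure D3:**
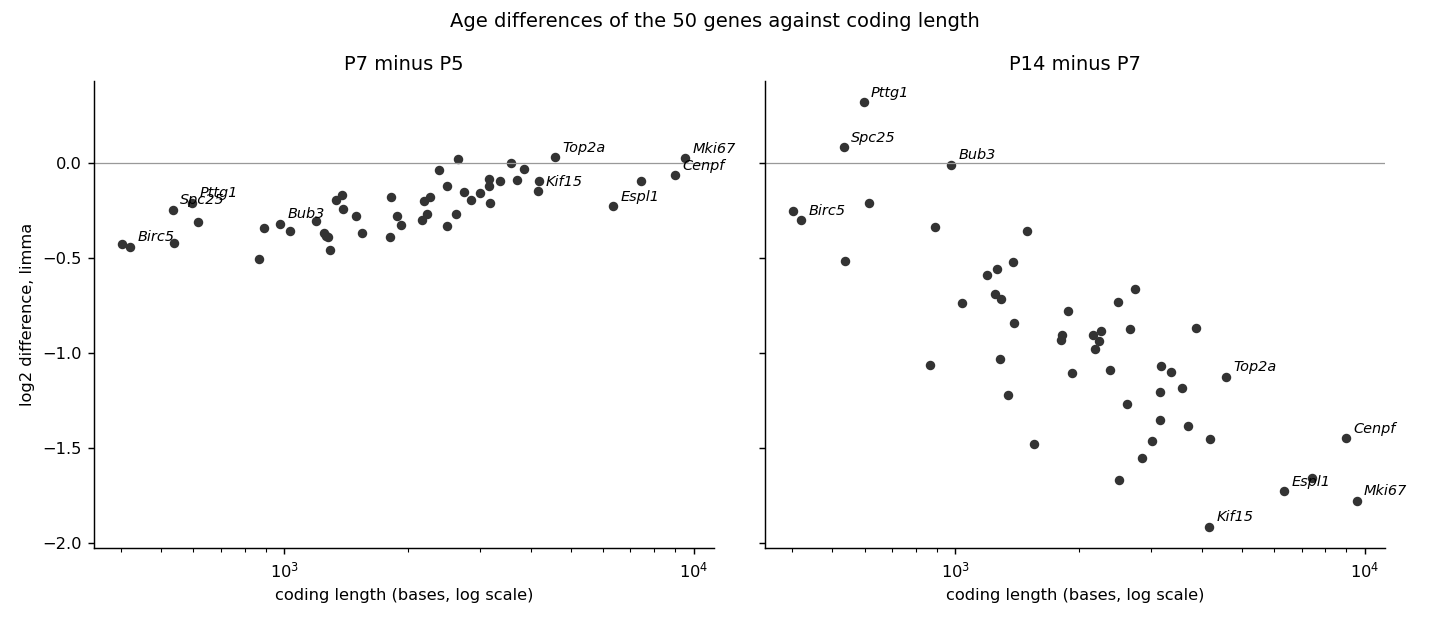
The x axes give coding length in bases on a log scale and the y axes the log2 difference from limma, at P7 minus P5 on the left and P14 minus P7 on the right, for the 50 genes. Points climb with length on the left, Spearman 0.79, and descend with length on the right, Spearman -0.79, with Pttg1 above 0 and Kif15 lowest.

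The genes moved together from liver to liver. Over the 18 livers, the 1225 pairs of genes had a median Pearson correlation of 0.92 in log2 values, which the common fall with age largely carries, and 0.59 after each group's mean was removed. Spc25, Ect2 and Pttg1 were the genes least tied to the rest in these deviations, with mean correlations of -0.04, 0.07 and 0.11, and Mki67 the most tied, at 0.68. The points share libraries and scaling, so these are descriptions.

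Other genes of mitosis, listed by textbook role, were set beside the 50. At P14 against P5, 25 of 28 other kinetochore genes fell with a median of -0.99, among them Knl1, the platform that recruits Bub1, at -1.87, Cenph at -1.48 and Ska1 at -1.47. Among other spindle and cytokinesis genes 24 of 26 fell with a median of -1.08, including Spag5 at -1.99, Kif18a at -2.03 and Tacc3 at -1.22. Subunits and partners of the anaphase-promoting complex, many of which resting cells also hold, fell in 6 of 16 cases. Their median was -0.11, and 24.8% of all tested genes fell. The 3 of the 16 with the smallest p were the partners Fzr1, the G1 activator of the complex, at -1.51 and Ube2s at -0.55, and the subunit Anapc5 at -0.32. Condensin II and cohesin fell in 7 of 12 genes with a median of -0.22. The condensin II subunits Ncapg2, at -1.57, and Ncapd3, at -1.04, differed more than the cohesin subunit Rad21, at -0.39.

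Regulators upstream fell as well. Mybl2, or B-Myb, the MuvB partner in dividing cells, had a P14 minus P5 difference of -2.97 (SE 0.16, limma, Benjamini-Hochberg adjusted p = 3.4e-11), E2f8 of -1.89 and E2f4 of -1.13. Of 16 genes in the list of DREAM, MuvB and E2F regulators 12 fell and 1 rose, where 24.8% of all tested genes fell and 23.9% rose. The gene that rose was Rbl2, or p130, the pocket protein of resting cells, by 0.48 (limma, Benjamini-Hochberg adjusted p = 0.0016). Of 9 genes that brake or assist mitotic entry 6 fell, led by the phosphatases Cdc25b at -2.86 and Cdc25a at -1.03 and the kinase Pkmyt1 at -1.01. Rbl2 was named after its value was seen.

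Markers of blood-forming cells fell over the same days. Red cell precursor markers fell at P14 against P5 in 13 of 15 genes with a median of -3.79, where 24.8% of all tested genes fell. Their summed scaled counts ran from 11520 to 15920 at P5, from 7843 to 12877 at P7 and from 2194 to 3884 at P14. Klf1, the erythroid transcription factor, had 404 to 571 scaled counts at P5, 232 to 384 at P7 and 41 to 76 at P14. Hba-a1, an alpha globin, with 58 to 103 scaled counts over all livers, and Tfrc, the transferrin receptor, did not pass the threshold. The limit given for Alb holds for Hba-a1 too. Neutrophil precursor markers fell in 10 of 10 genes with a median of -2.60, with sums of 3942 to 7888 at P5, 3272 to 4235 at P7 and 619 to 1421 at P14. Megakaryocyte markers fell in 8 of 8 genes with a median of -2.32 and B cell markers in 6 of 7 with a median of -0.98.

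Of the markers of resident cells, macrophage genes fell in 6 of 8 with a median of -0.55 and sinusoidal endothelial genes in 3 of 7 with a median of -0.14. Of all tested genes 24.8% fell and 23.9% rose at P14 against P5. Hepatocyte genes rose in 4 of 8 and fell in none, with a median of 0.17. Their sums were 10756 to 14144 at P5, 12372 to 16557 at P7 and 12686 to 16375 at P14. This list holds Alb, so the limit given for Alb applies to its sum and could apply to its other abundant transcripts. Stellate and fibroblast genes rose in 5 of 8 with a median of 0.65, and bile duct genes fell in 1 of 6. No list's sum was at 0 in any liver at P14. How much of the fall of the mitosis genes goes with the fall of blood-forming cells was not tested.

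**Figure D4:**
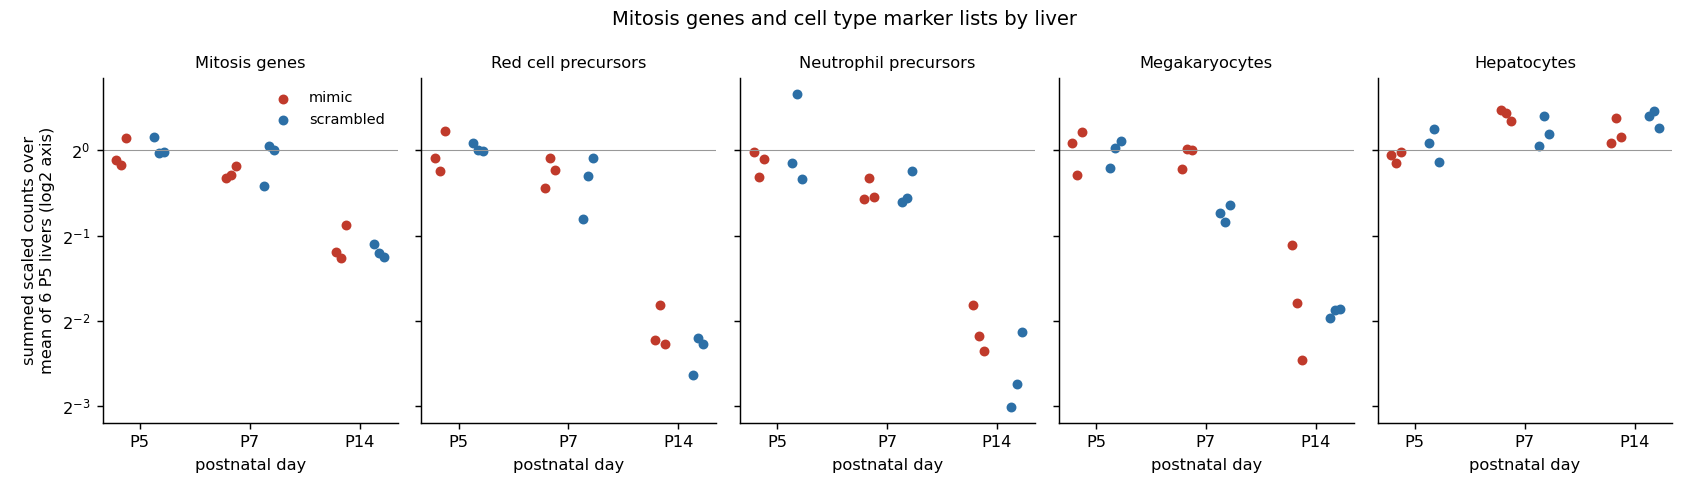
Each panel shows the summed scaled counts of a gene list in single livers over the mean of the 6 P5 livers, on a log2 y axis, by postnatal day, with mimic left of scrambled. By P14 the mitosis genes lie below their P5 level, the red cell, neutrophil and megakaryocyte lists lie lower still in most livers, and the hepatocyte list lies above its P5 mean. The limit given for Alb holds for the hepatocyte list, which contains Alb.

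The mimic changed no mitosis gene past the threshold on any day. At P5, 0 of 50 genes passed, where 0% of all tested genes did, and 0 had an unadjusted p under 0.05, where 1.89% did. At P7, 0 passed, where 0.00709% did, and 4 had an unadjusted p under 0.05, where 7.61% did. At P14, 0 passed, where 0.0213% did, and 1 had an unadjusted p under 0.05, where 5.41% did. For the mimic averaged over the 3 days, 0 passed, where 0.00709% did, and 0 had an unadjusted p under 0.05, where 3.24% did. For a mimic effect that differs between days, 0 passed, where 0.00709% did, with 5 at an unadjusted p under 0.05, where 6.5% were. The interval of single differences is wide: the median SE over the 50 genes was 0.16 on the log2 scale for 1 day and 0.09 for the average of the 3 days.

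Although no gene passed, the 50 leaned to one side on each day, and the side differed. At P5, 45 of 50 were lower in mimic livers, with a median of -0.07, at P7, 49 were lower, with a median of -0.16, and at P14, 41 were higher, with a median of 0.10. Medians over all tested genes were between -0.01 and 0.00 on these days. Averaged over the 50 genes and set against the P5 mean, the P7 mimic livers stood at -0.38, -0.36 and -0.23, against -0.40, 0.02 and -0.02 in P7 scrambled livers. The mimic livers lay within the scrambled range, at its lower end. Without P7 scrambled livers 2 and 3 the P7 median was 0.10, with 20 genes lower, and without P7 scrambled liver 1 it was -0.30, with 50 lower.

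At P14 the mimic livers stood at -1.20, -1.30 and -0.88 on the same scale, against -1.11, -1.23 and -1.29 in scrambled livers, so that liver 3 alone stood above the rest. Without it the P14 median was -0.05, with 29 genes lower. At P5 the mimic livers stood at -0.10, -0.16 and 0.15, against 0.14, -0.03 and 0.01 in scrambled livers. Leaving out P5 scrambled liver 1 brought the P5 median to -0.00, with 26 genes lower. The direction at P14 thus rests on 1 liver, and most of the lean at P5 went with 1 liver. At P7 the median stayed negative, from -0.30 to -0.10, with any single liver left out. It turned without P7 scrambled livers 2 and 3, which left the liver with most muscle transcripts as the sole scrambled liver of that day. The 50 genes moved together from liver to liver, so they are not independent witnesses of these directions.

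**Figure D5:**
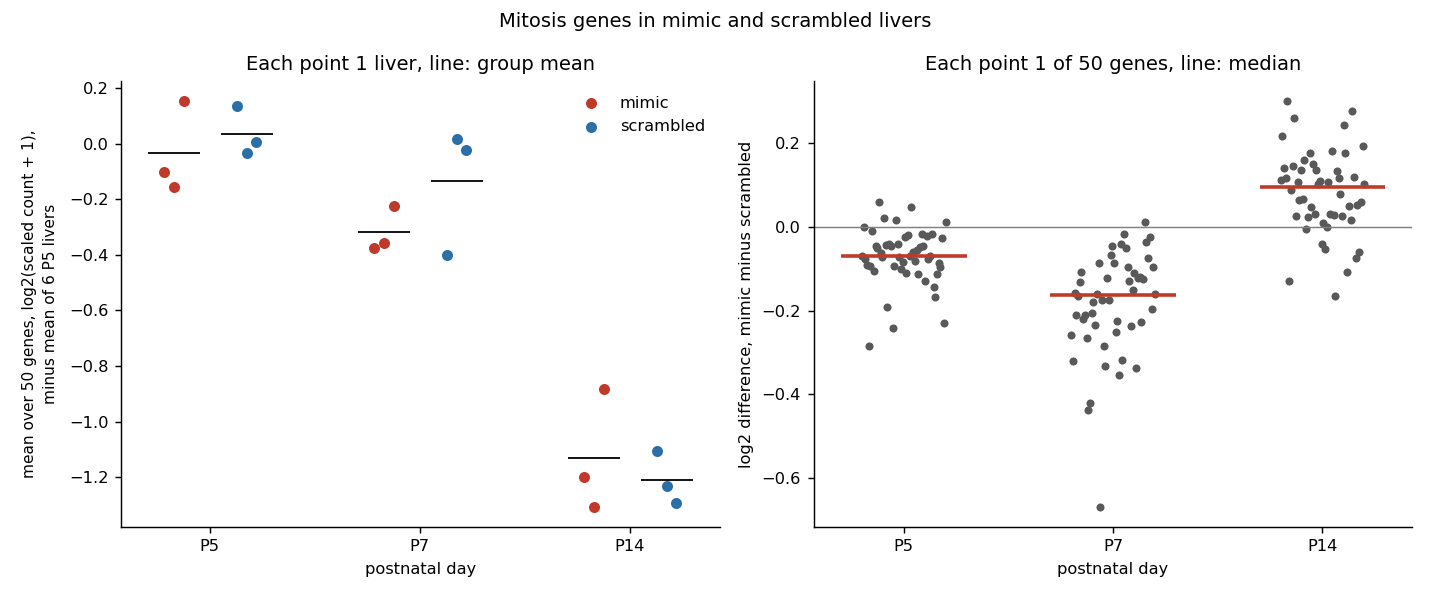
Left, each point is 1 liver, the y axis is the mean over the 50 genes of log2(scaled count + 1) minus the mean of the 6 P5 livers, and lines are group means, mimic in red left of scrambled in blue; right, each point is 1 gene's log2 difference, mimic minus scrambled, and lines are the medians of -0.07, -0.16 and 0.10. P7 scrambled livers fall apart into 1 low and 2 high ones, and P14 mimic liver 3 stands above the other P14 livers.

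The single genes with the smallest p at P7 were Mad2l1, Cep55 and Cdc20. Mad2l1 had 328, 342 and 341 scaled counts in mimic livers, against 412, 431 and 418 in scrambled livers. The groups did not overlap, and the difference was -0.32 (SE 0.10, limma, Benjamini-Hochberg adjusted p = 0.34). Cep55, which recruits the machinery of the final cut, had 92, 63 and 104, against 99, 178 and 139, a difference of -0.67 (SE 0.21, adjusted p = 0.35) in overlapping groups. Cdc20 had 348, 286 and 324, against 405, 441 and 450, a difference of -0.44 (SE 0.15, adjusted p = 0.42) with no overlap. Mimic livers lay wholly below scrambled livers in 6 of the 50 genes at P7, namely Ccnb2, Cdc25c, Aurka, Mad2l1, Cdc20 and Cenpa, where 7.44% of all tested genes did.

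At P14 the smallest p-values belonged to Nusap1, Ccnb1 and Mad2l1, all higher in mimic livers and none past the threshold. Nusap1, which bundles microtubules near chromosomes, had 271, 264 and 277 scaled counts in mimic livers, against 237, 221 and 228 in scrambled livers. The difference was 0.24 (SE 0.10, limma, Benjamini-Hochberg adjusted p = 0.84) with no overlap. Ccnb1 had 146, 178 and 184, against 150, 155 and 119, a difference of 0.26 (SE 0.14, adjusted p = 0.94), which was 0.14 without P14 scrambled liver 3. Mad2l1 had 345, 332 and 360, against 304, 323 and 287, a difference of 0.18 (SE 0.10, adjusted p = 0.95). Mad2l1 thus lay lower without overlap at P7 and higher without overlap at P14, and it had the smallest p for a mimic effect that differs between days (unadjusted p = 0.0060, limma, Benjamini-Hochberg adjusted p = 0.54), ahead of Cep55 and Nusap1 at adjusted p = 0.68 and 0.69. Mimic livers lay wholly above scrambled livers in 4 genes at P14, Sgo1, Bub1, Mad2l1 and Nusap1, where 4.96% of all tested genes did.

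At P5 the smallest p-values were those of Bub1, Ect2 and Ttk. Bub1 had 250, 243 and 305 scaled counts in mimic livers, against 326, 304 and 338 in scrambled livers, a difference of -0.28 (SE 0.16, unadjusted p = 0.10, limma, Benjamini-Hochberg adjusted p = 1.00). Ect2, which activates RhoA at the cleavage plane, had 353, 339 and 414, against 429, 405 and 471. Ttk, or Mps1, the kinase at the top of the checkpoint, had 153, 143 and 187, against 190, 146 and 238. Mimic and scrambled livers overlapped in all 50 genes at P5, where 2.12% of all tested genes lay wholly lower and 2.89% wholly higher in mimic livers. For the average of the 3 days the smallest p-values were those of Cep55 at -0.18, Kif20a at -0.14 and Ccnb2 at -0.10, all with an adjusted p of 1.00. With single livers left out these ran from -0.25 to -0.11, from -0.21 to -0.09 and from -0.14 to -0.06.

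The 6 genes with a match to the mimic's seed did not stand out. The median differences, mimic minus scrambled, of these 6 at P5, P7 and P14 were -0.03, -0.20 and 0.13, against -0.07, -0.16 and 0.08 in the 44 genes without one. Kif23, with the 8-mer shown above, had differences of -0.02, -0.22 and -0.00 on the 3 days. Its scaled counts at P7 were 303, 286 and 336 in mimic livers, against 288, 429 and 376 in scrambled livers, which overlapped.

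Marker lists of other cell types are set beside the mimic comparison of the mitosis genes. At P7, 8 of 8 macrophage markers were lower in mimic livers, with a median of -0.12, and 7 of 7 sinusoidal endothelial markers, with a median of -0.22, and none passed the threshold. The summed endothelial markers were 4721, 4815 and 4262 in mimic livers, against 5605, 5125 and 5302 in scrambled livers, with no overlap. At P7 the summed megakaryocyte markers were 2387, 2822 and 2792 in mimic livers, against 1674, 1562 and 1786 in scrambled livers, with no overlap and a median difference of 0.72, and 0 of 8 genes passed the threshold. Red cell precursor markers had a median difference of 0.08 at P7 and of 0.55 at P14, where 13 of 15 were higher in mimic livers. At P14, 1 of the 15 passed the threshold, where 0.0213% of all tested genes did. Neutrophil precursor markers were higher in 10 of 10 at P14, with a median of 0.56 and none past the threshold. At P14 the summed red cell markers were 2924, 3884 and 2817 in mimic livers, against 2194, 2964 and 2831 in scrambled livers, so P14 mimic liver 3, the highest in mitosis genes, was not the highest here. At P14, 8 of 8 stellate and fibroblast markers were lower in mimic livers, with a median of -0.39 and none past the threshold. Their sums were 8636, 8138 and 6386 in mimic livers, against 10251, 9520 and 10434 in scrambled livers, with no overlap. For all other lists and days the sums of mimic and scrambled livers overlapped, except for skeletal muscle at P7, which was lower in mimic livers. B cell markers were higher in 7 of 7 at P7, with a median of 0.46 and none past the threshold. Bile duct markers were higher in 6 of 6 at P5, with a median of 0.56 and none past it. The part of these cells in the mimic comparison of the mitosis genes was not tested.

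Some values are uncertain because exons overlap with other genes and the sources used here do not name the strand setting of the counting. Exons of 14 of the 50 genes overlap with an exon of another gene, and in 11 of them with one on the opposite strand. The overlap covers 29.3% of Kif20a's exon bases with Cdc23, which averaged 363 scaled counts, and 22.8% of Ube2c's with Tnnc2, a muscle gene, which averaged 11.8. Kif4 with Pdzd11, Ncapg with Lcorl, Cdc25c with Gm3550, Ccna2 with Exosc9 and Prc1 with Rccd1 share 11.1% to 15.1%. The partners averaged 231, 163, 0.222, 249 and 27.7 scaled counts in that order.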

How the data were processed

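RNA from 18 livers was sequenced as stranded mRNA libraries, per the labels' protocols. The submitters' processing notes name Trimmomatic 0.39, STAR 2.6.1d, Picard 2.21.7, featureCounts 1.6.5, DESeq2 1.26.0 and builds mm10 and GRCm38. The sources used here do not name the step that Picard served. The deposited values are a score: gene counts scaled per library and rounded to whole numbers by the authors, as the values themselves show, so no count model was used. Sequencing depth cannot be recovered from them.

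All 18 libraries entered 1 limma fit (limma 3.58.1, R 4.3.3) of log2(value + 1), with the 6 group means, a mean-variance trend and genes with a mean of at least 10. It had 12 residual degrees of freedom. Age differences average mimic and scrambled. Scripts were tested on simulated data. The genes and lists were chosen with earlier results of these data known. Genes given in full are the 2 highest of each role group, the 3 smallest p per mimic comparison, the 4 largest and 4 smallest age differences, and up to 3 per other list. Lengths and 3′UTRs came from GENCODE mouse release 21, which held 31108 of 31165 gene IDs. Alternatives covered scaling, pseudocount, filter, variance trend, libraries, a replicate block and library length bias. Not all marker genes that the rule names are given here.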

Additional observations from a re-analysis of the deposited data

How the results depend on the processing

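The counts of mitosis genes past the threshold and their median differences were recomputed in 28 alternative fits. In the mimic comparisons 0 genes passed in every one. Leaving out P7 scrambled livers 2 and 3 turned the P7 mimic median to 0.0957, and leaving out P14 mimic liver 3 turned the P14 mimic median to -0.045. The count at P7 against P5 was 0 with the length covariate, and ran from 11, without P5 mimic liver 3, to 21 when single livers were left out. At P14 against P5 the count was 48 or 49, and at P14 against P7 it was 48, when single livers were left out. Shares of all tested genes past the threshold in these fits are not given here. The 8-mer share was 2% in place of the 7-mer share of 12%, and with upstream bases alone the CHR share was 40.5% and the share with both motifs 33.3%. The replicate block gave 18 genes at P7 against P5, 48 at P14 against P7, 48 at P14 against P5 and 0 in each mimic comparison. It moved no count by over 1.5 times, but it was a factor of replicate number shared by all days. Deviations of 9 same-numbered pairs of a day correlated at -0.23 to 0.24, with 2 pairs above 0.1. Pairs of a day with different numbers ran from -0.30 to 0.39. With groups of 3 livers this check cannot tell whether same-numbered livers were paired, and the labels do not say. Signs of single genes that turned were of differences between -0.01 and 0.08. At P7 against P5, Top2a, Mki67 and Kif20a stood at -0.031, -0.086 and -0.0086 under quantile normalization, at -0.18, -0.14 and -0.23 with the length covariate and at -0.18, -0.23 and -0.044 without P7 scrambled livers 2 and 3. With single livers left out they ran from -0.027 to 0.13, from -0.054 to 0.15 and from -0.032 to 0.088, and Smc2 from -0.091 to 0.12. At P14 against P7, Bub3 stood at 0.0044 with TMM scaling, 0.019 under quantile normalization and 0.023 without P7 scrambled livers 2 and 3, and from -0.055 to 0.021 with single livers left out, and Spc25 at -0.10 with the length covariate. The cause of these turns was not tested. Spc25 lost its call at P14 against P5 in most fits, and Cenpa and Mad2l1 lost theirs at P14 against P7 under quantile normalization and without P7 scrambled livers 2 and 3. Depth is unknown, so counting error could not be given.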
